A study of Mus musculus with 8 samples.

Results

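The 30 genes described here encode the bone matrix, the machinery of mineralization, osteocyte products, bone transcription factors and bone signalling proteins, and they were chosen by symbol as the rows so named among the 47517 symbols of each count file. All 30 had a row and all 30 were expressed highly enough to be tested among 21392 genes. They were measured by sequencing of total RNA from whole inner ears taken at postnatal day 14. The mutant group comprised 4 libraries from heterozygous mice with a frameshift that alters thyroid hormone receptor α1 (TRα1, encoded by Thra), and the wild-type group comprised 4 libraries from their littermates, with no treatment in either group. The strain, the sex, the position of the frameshift and the number of animals or ears per library are not given in the labels, and p-values therefore measure the spread between these libraries, which may be in part technical. The tissue is labelled inner ear, whereas the title of the series names the cochlea. The deposited counts carry no sequence, so the frameshift itself could not be checked.

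Bone is laid down by osteoblasts, which secrete a collagen matrix and then mineralize it. Phosphate is freed by phosphatases at the cell surface and in matrix vesicles, while pyrophosphate and acidic proteins restrain or seed the growth of crystals. Osteoblasts that become buried in the matrix turn into osteocytes, which control phosphate balance and further bone formation through secreted proteins. The inner ear lies in the bony otic capsule, and bone is a known target tissue of thyroid hormone through TRα1.

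Total counts ranged from 18930841 to 23064578 per library, and levels are given as CPM, the count scaled by the normalized library size. In that unit 3 counts, taken as the floor for counting error only, equal 0.132 to 0.159 CPM. The 30 genes together took between 0.978% and 2.11% of all counts in a library. Cochlear genes were present in every library (summed CPM of 8 genes of supporting cells and stria, 3469 to 5459.7 in mutant and 3661 to 5323 in wild-type libraries). Genes of teeth, where Dmp1 is also made, summed to at most 1.72 CPM over 6 genes in any library, and the odontoblast gene Dspp had at most 7 counts. In this bulk tissue, fewer bone cells and less bone RNA per cell cannot be told apart.

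Bone RNA was abundant in the samples of both genotypes. Compared per kilobase of exon, the osteocalcin genes Bglap and Bglap2 stood highest, at 1927 ± 335 and 1905.5 ± 335 CPM per kilobase in mutant libraries and 2234 ± 446 and 2228 ± 436 in wild-type libraries (SD, n = 4 each). Spp1, Col1a1, Ibsp and Col1a2 followed, and Tnfsf11, at 1.13 ± 0.635 CPM per kilobase in mutant and 1.20 ± 0.326 in wild-type libraries (SD, n = 4 each), was near the bottom with Fgf23. The length used covers all annotated exons of a gene, 12426 bases for Col1a2 and 6563 for Col1a1. This order therefore depends on the annotation. Bglap, Bglap2 and Bglap3 lie within 15.8 kb of chromosome 3 and share stretches of identical sequence. In their annotated coding transcripts 74.7% of the 50-base windows of Bglap and 88.2% of those of Bglap2 also occurred in another copy, as did 7.03% of those of Bglap3, whose transcript is longer. Their separate values are therefore uncertain, most of all for Bglap and Bglap2, and the sum over all copies is given below. For Phospho1, 89.6% of the exon bases are also exon of Zfp652 and 84.2% are also exon of Abi3, which leaves its count uncertain, since no source used here gives the counting options.

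A cluster on chromosome 5 holds Dmp1, Ibsp, Mepe and Spp1, neighbours that belong to one family of acidic phosphoproteins of mineralized tissue, with no other protein-coding gene between them over 238 kb. Between the genotypes Ibsp and Spp1 had values of opposite sign (below), and neither passed the test. The sequence just upstream of each gene of the cluster is shown, together with that of Bglap on chromosome 3. A link between these sequences and the values was not tested. Sequences are from RefSeq (GRCm38.p6), 5′ to 3′ on the strand of the gene, up to 250 bases before the start and ending before the first base of the gene in GENCODE M21. Capitals mark the letters ACCACA on either strand, the core of the binding motif of RUNX factors. The windows are chr5:104202367-104202612 (plus) for Dmp1, chr5:104299037-104299170 (plus) for Ibsp, chr5:104325079-104325328 (plus) for Mepe, chr5:104434861-104435110 (plus) for Spp1 and chr3:88384467-88384716 (minus) for Bglap.
Dmp1: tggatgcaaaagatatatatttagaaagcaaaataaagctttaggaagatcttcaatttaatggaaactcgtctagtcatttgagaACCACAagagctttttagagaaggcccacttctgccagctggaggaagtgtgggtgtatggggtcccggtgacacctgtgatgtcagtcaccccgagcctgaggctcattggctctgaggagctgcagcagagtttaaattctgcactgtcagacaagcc
Ibsp: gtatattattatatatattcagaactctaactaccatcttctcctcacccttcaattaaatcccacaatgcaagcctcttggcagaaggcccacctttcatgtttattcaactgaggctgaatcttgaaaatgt
Mepe: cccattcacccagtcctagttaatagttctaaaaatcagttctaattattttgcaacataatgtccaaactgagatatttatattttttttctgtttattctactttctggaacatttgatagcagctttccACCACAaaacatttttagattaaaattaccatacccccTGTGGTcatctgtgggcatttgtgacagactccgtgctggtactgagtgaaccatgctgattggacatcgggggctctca
Spp1: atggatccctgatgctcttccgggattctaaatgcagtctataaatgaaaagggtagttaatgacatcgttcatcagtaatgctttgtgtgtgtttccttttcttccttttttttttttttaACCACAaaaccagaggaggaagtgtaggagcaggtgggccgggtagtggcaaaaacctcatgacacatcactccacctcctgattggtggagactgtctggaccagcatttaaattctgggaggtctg
Bglap: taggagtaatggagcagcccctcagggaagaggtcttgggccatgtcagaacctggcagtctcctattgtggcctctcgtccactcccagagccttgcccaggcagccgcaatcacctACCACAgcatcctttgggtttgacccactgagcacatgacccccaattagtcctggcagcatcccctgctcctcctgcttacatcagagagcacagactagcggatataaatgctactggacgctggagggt
RefSeq windows were found for 21 of the 30 genes. Of these, 8 held ACCACA or TGTGGT, its reverse complement, within 250 bases before the start, or 38.1%, against 14.0% of 32851 promoter windows of the same length. Dmp1, Spp1 and Bglap held 1 match each, Mepe held 2, and Ibsp held none in the 250 bases before its RefSeq start. For Ibsp only 134 of those bases lie before the gene in GENCODE M21, against 246 to 250 for the other genes shown. The absence in Ibsp is thus not a like comparison. A match describes the letters only.

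In the fit with genotype as the only term, no member of the module passed the test. The lowest adjusted p among the 30 was 0.924 (edgeR quasi-likelihood, Benjamini-Hochberg over all genes tested). Of the 21392 genes tested 9 were called, or 0.0421%, made up of 0.00467% higher and 0.0374% lower in mutant libraries, and 0 of the 30 were among them. At an unadjusted p under 0.05, 2 of the 30 were higher in mutant libraries (Ibsp and Pth1r) and 0 were lower, where 2.21% of all genes were higher and 3.09% lower. DESeq2 and limma-voom called 0 of the 30 as well, with 4 and 1 at an unadjusted p under 0.05. The log2 fold change (mutant minus wild-type) was positive for 23 of the 30, against 48.3% of all genes tested, and its median was 0.29 against -0.0061 over all genes. The 7 with a negative value were Bglap, Bglap2, Bglap3, Spp1, Mmp13, Ank and Tnfsf11.

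**Figure D1:**
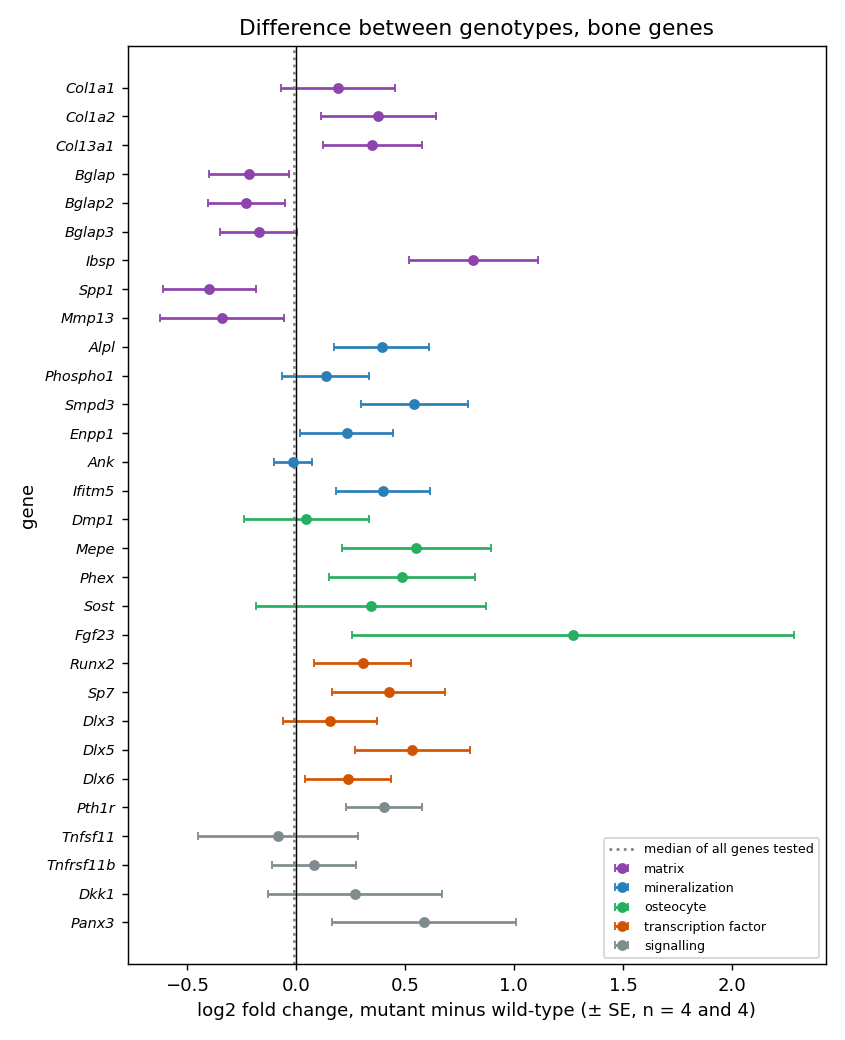
Log2 fold change (mutant minus wild-type, horizontal axis) of the 30 bone genes, with points for the edgeR estimate and bars for its standard error (n = 4 and 4 libraries), coloured by role, and a dotted line at the median of all genes tested. Values ran from -0.40 for Spp1 to 1.27 for Fgf23, 23 of them positive, and none passed the threshold.

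The size of the positive median depended on single libraries. Mutant replicate 3 was the highest of the 8 libraries for 19 of the 30 genes, against 13.3% of all genes tested. Wild-type replicate 2 was the lowest for 21 of the 30, against 16.8% of all genes. Without mutant replicate 3 the median of the 30 was 0.15, and without wild-type replicate 2 it was 0.089. Both libraries were picked as extremes in these same genes, which favours a lower median. The highest median with 1 library left out was 0.42, without wild-type replicate 3. The median difference in log2 CPM was 0.11 between libraries with 1 number in the title (20 of 30 positive). It was 0.48 between those with 2 numbers (25 of 30 positive, n = 2 per genotype in each). Titles with 2 numbers belong to replicates 2 and 3 of both genotypes. What the numbers stand for is not given in the labels. The Y-linked gene Eif2s3y had 530 counts in mutant replicate 3, 545 in wild-type replicate 2 and 520 in wild-type replicate 3, with no more than 2 in any other library, while Xist had at least 3622 counts in all 8. Sex makeup thus differed between libraries. Xist had 6228 counts in mutant replicate 3 and 3622 in wild-type replicate 2. The part of sex makeup in these values was not tested.

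**Figure D2:**
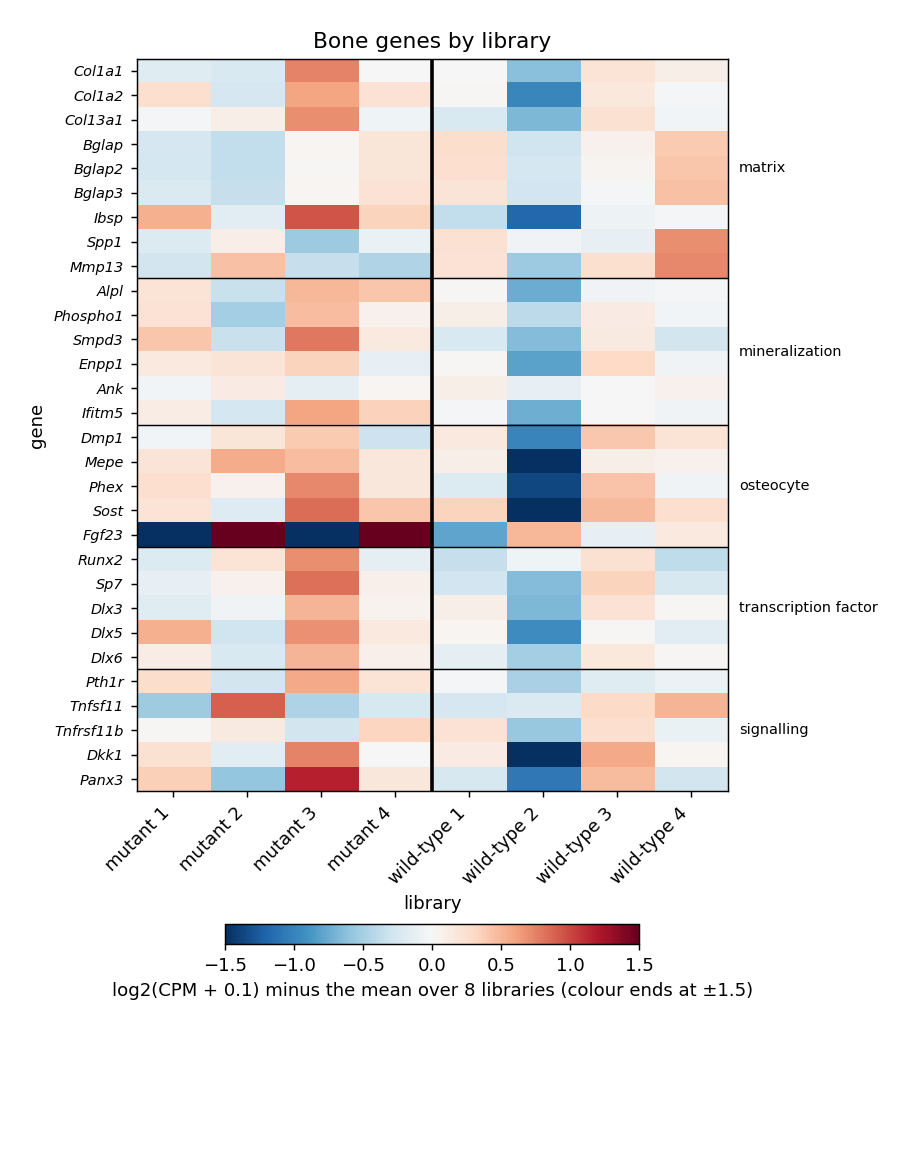
Level of the 30 bone genes (rows, grouped by role) in the 4 mutant libraries (left) and the 4 wild-type libraries (right), as log2(CPM + 0.1) minus the mean of the gene over the 8 libraries. Mutant replicate 3 was highest for 19 genes and wild-type replicate 2 lowest for 21, while the osteocalcin genes, Spp1 and Mmp13 peaked in wild-type replicate 4.

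Of the matrix genes 4 of 9 had a positive log2 fold change, with a median of -0.17. This sign rests on counting the osteocalcin copies separately: with their sum taken as 1 gene, 4 of 7 were positive and the median was 0.19. Col1a1, a chain of type I collagen (chr11:94936224-94953042, plus strand), had 3704, 3586, 7026 and 4190.4 CPM in mutant replicates 1 to 4, against 4167, 2708, 4837 and 4460.3 CPM in wild-type replicates 1 to 4. Its genotypes overlapped, and mutant replicate 3 stood well above the other libraries (log2 fold change 0.19, SE 0.26). Col1a2, the partner chain, had 4118, 2907, 5203 and 4009.5 CPM in mutant libraries, against 3479, 1756, 3846 and 3403 CPM in wild-type libraries. Here too the groups overlapped (log2 fold change 0.38, SE 0.26). Col13a1, a transmembrane collagen, averaged 41.2 ± 11.1 CPM in mutant and 32.3 ± 8.16 CPM in wild-type libraries (SD, n = 4 each).

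Ibsp, bone sialoprotein, which seeds mineral crystals (chr5:104299171-104311469, plus strand), showed the largest log2 fold change among matrix genes. It had 1471, 915, 1959.8 and 1282 CPM in mutant libraries, against 789.6, 448, 964 and 997 CPM in wild-type libraries. Of the mutant libraries 3 lay above every wild-type library, while mutant replicate 2 lay below wild-type replicates 3 and 4. It averaged 1407 ± 435 CPM in mutant and 799.6 ± 251 CPM in wild-type libraries (SD, n = 4 each). The log2 fold change, 0.81 (SE 0.30), did not pass the test (edgeR adjusted p = 0.924). With each library left out in turn it lay between 0.61 and 0.97, and it was 0.63 and 1.03 between libraries with 1 and 2 numbers in the title.

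Osteopontin and osteocalcin had negative log2 fold changes. Spp1, osteopontin, an inhibitor of crystal growth that osteoclasts and macrophages also make (chr5:104435118-104441050, plus strand), had 1613, 2003, 1275 and 1739 CPM in mutant libraries, against 2192, 1799, 1706 and 3029 CPM in wild-type libraries. The groups overlapped, and wild-type replicate 4 was highest (log2 fold change -0.40, SE 0.21). The sum of Bglap, Bglap2 and Bglap3, which encode the calcium-binding protein osteocalcin and a relative, was 2018, 1867, 2449 and 2731 CPM in mutant libraries, against 2867, 1974, 2488 and 3191 CPM in wild-type libraries. The ranges overlapped over most of their length, with single-gene log2 fold changes of -0.21, -0.23 and -0.17 (SE 0.18 each). Mmp13, a collagenase of osteoblasts and hypertrophic chondrocytes, averaged 102 ± 32.0 CPM in mutant and 129 ± 43.2 CPM in wild-type libraries (SD, n = 4 each), with a difference in log2 CPM of -0.83 between titles of 1 number and 0.20 between titles of 2. Per-library values of osteocalcin were added after they had been seen.

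**Figure D3:**
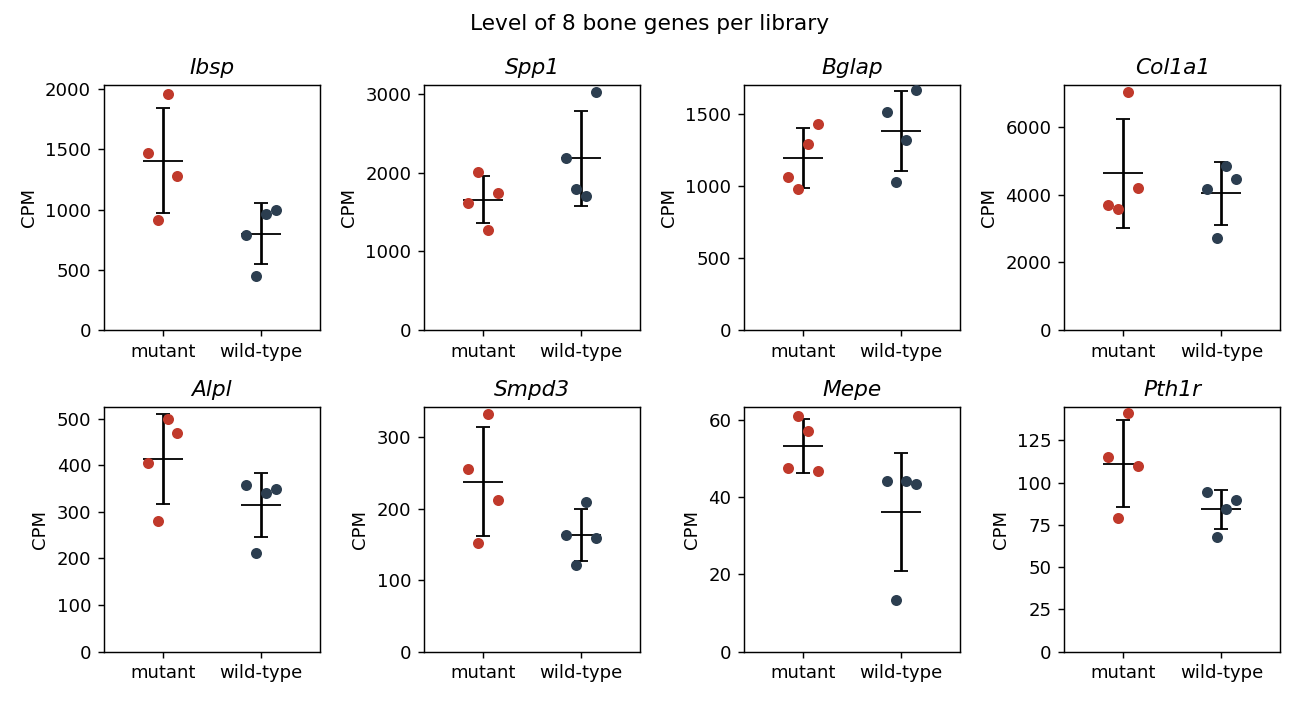
CPM per library of 8 bone genes in mutant (left, red) and wild-type (right, dark) libraries, with points for libraries, a horizontal mark for the mean and bars for the SD (n = 4 each). Mepe had no overlap between the genotypes, whereas the other 7 genes overlapped, among them Ibsp at 915 to 1959.8 CPM in mutant and 448 to 997 CPM in wild-type libraries.

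Ratios within a library, where scaling cancels, were set beside the levels. The ratio of Ibsp to Col1a1 was 0.397, 0.255, 0.279 and 0.306 in mutant libraries, against 0.189, 0.165, 0.199 and 0.224 in wild-type libraries, with no overlap. Of 29 such ratios to Col1a1 among the members this was the only one that separated the genotypes, and 0.145% of all genes separated upward and 0.528% downward. The ratio of Ibsp to Bglap was 1.39, 0.933, 1.52 and 0.896 in mutant libraries, against 0.521, 0.437, 0.731 and 0.599 in wild-type libraries. Alpl, Ifitm5, Dlx5 and Pth1r were also higher relative to Bglap in every mutant library, 5 of 29 members in all, where 2.21% of all genes were. The ratio of Ibsp to Spp1 overlapped, at 0.912, 0.457, 1.54 and 0.737 in mutant libraries, against 0.360, 0.249, 0.565 and 0.329 in wild-type libraries. The ratio of Bglap to Col1a1 itself overlapped, at 0.271 ± 0.0653 in mutant and 0.347 ± 0.0501 in wild-type libraries (SD, n = 4 each). These ratios were chosen after the levels had been seen and were not tested.

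**Figure D4:**
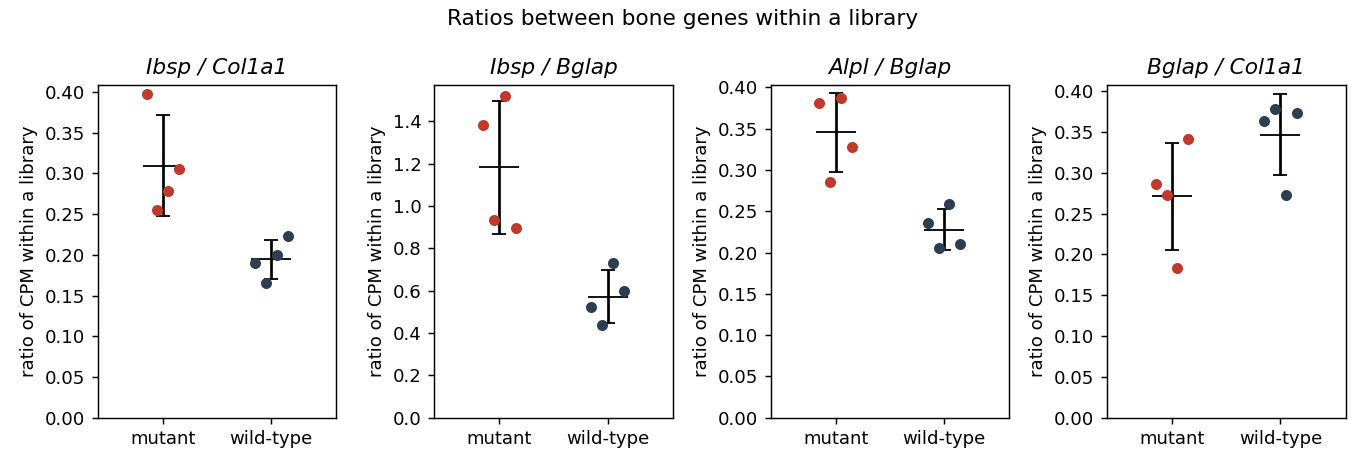
Ratio of CPM of 2 bone genes within each library, in mutant (left, red) and wild-type (right, dark) libraries, with a mark for the mean and bars for the SD (n = 4 each). Ibsp relative to Col1a1 ran from 0.255 to 0.397 in mutant and 0.165 to 0.224 in wild-type libraries, while Bglap relative to Col1a1 overlapped.

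Of the mineralization genes 5 of 6 had a positive value (median log2 fold change 0.31), and none passed. With 1 library left out this median ran from 0.15 (without wild-type replicate 2) to 0.41 (without mutant replicate 2). Alpl, the phosphatase that breaks down pyrophosphate, had 405, 280.3, 499 and 469.6 CPM in mutant libraries, against 357, 211, 341 and 349.5 CPM in wild-type libraries. Mutant replicate 2 alone kept the groups from separating (log2 fold change 0.39, SE 0.22). Smpd3, a neutral sphingomyelinase whose loss disturbs mineralization in mice, had 255, 151, 332 and 212 CPM in mutant libraries, against 163, 122, 209 and 158 CPM in wild-type libraries (log2 fold change 0.54, SE 0.25). In each genotype replicate 2 was the lowest library for both genes. Ifitm5, an osteoblast membrane protein, averaged 34.5 ± 8.40 CPM in mutant and 26.1 ± 5.69 CPM in wild-type libraries (SD, n = 4 each, log2 fold change 0.40, SE 0.22). Phospho1, which frees phosphate inside matrix vesicles, had a log2 fold change of 0.14 (SE 0.20), and Enpp1, which makes pyrophosphate, 0.23 (SE 0.21). Ank, which brings pyrophosphate out of the cell, had the smallest SE of the 30, at 147, 165, 135 and 154 CPM in mutant libraries, against 159, 138, 151 and 157 CPM in wild-type libraries (log2 fold change -0.011, SE 0.086).

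All 5 osteocyte genes had a positive log2 fold change (median 0.49, and 0.24 without wild-type replicate 2). In 4 of them wild-type replicate 2 was the lowest library. Dmp1, a matrix phosphoprotein (chr5:104202613-104214102, plus strand), had 232, 270.4, 313 and 193 CPM in mutant libraries, against 263, 119, 316 and 276 CPM in wild-type libraries. Apart from that 1 library the wild-type values were as high as the mutant ones (log2 fold change 0.049, SE 0.28, and -0.18 without wild-type replicate 2). Mepe, a mineral-binding phosphoprotein (chr5:104325329-104338611, plus strand), had 47.7, 61.1, 57.2 and 46.9 CPM in mutant libraries, against 44.1, 13.4, 44.1 and 43.4 CPM in wild-type libraries. It was the only member of the 30 whose genotypes did not overlap, a state found in 1.28% of all genes on the higher and 1.41% on the lower side. Its log2 fold change was 0.55 (SE 0.34) and 0.28 without wild-type replicate 2.

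Phex, an endopeptidase of osteocytes that restrains Fgf23, had 194, 170.1, 268 and 183 CPM in mutant libraries, against 142, 63.0, 219.6 and 157 CPM in wild-type libraries (log2 fold change 0.49, SE 0.34). The spread among wild-type libraries exceeded the difference between the means. Sost, the Wnt inhibitor sclerostin, had 255, 183, 358 and 244 counts in mutant libraries, against 263, 35, 262 and 250 counts in wild-type libraries (log2 fold change 0.35, SE 0.53, and 0.0021 without wild-type replicate 2). Fgf23, the phosphate-lowering hormone of osteocytes, had 5, 103, 5 and 122 counts in mutant libraries, against 14, 33, 21 and 29 counts in wild-type libraries. Its mutant libraries lay on both sides of the wild-type range, with replicates 2 and 4 high and replicates 1 and 3 low (log2 fold change 1.27, SE 1.01). No other osteocyte gene shared this order of libraries. Counts of Sost and Fgf23 were set out after they had been seen.

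The 5 transcription factors were all positive (median log2 fold change 0.31) and none passed. With 1 library left out this median ran from 0.092 (without mutant replicate 3) to 0.44 (without wild-type replicate 3). Runx2, which starts the osteoblast programme, had 53.9, 71.5, 101 and 55.8 CPM in mutant libraries, against 48.6, 59.2, 72.5 and 47.6 CPM in wild-type libraries. Sp7 (osterix), which acts after it, had 61.6, 69.8, 118 and 70.7 CPM in mutant libraries, against 54.9, 42.6, 84.4 and 56.6 CPM in wild-type libraries. In each genotype replicate 3 was highest for both factors, and without mutant replicate 3 the log2 fold changes of 0.31 (SE 0.22) and 0.43 (SE 0.26) became 0.085 and 0.18. Dlx5, a homeobox factor of osteoblasts, had 30.6, 17.2, 34.1 and 23.4 CPM in mutant libraries, against 21.5, 11.0, 21.3 and 18.8 CPM in wild-type libraries (log2 fold change 0.54, SE 0.26). Only mutant replicate 2 lay within the wild-type range. For the related Dlx3 the log2 fold change was 0.16 (SE 0.22), and for Dlx6 it was 0.24 (SE 0.20).

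Among signalling genes 4 of 5 were positive (median log2 fold change 0.27), and none passed. The sign of this median rested on 1 library. It was -0.012 without wild-type replicate 2 and at most 0.40 with another library left out. Pth1r, the receptor of parathyroid hormone, had 115, 79.0, 141 and 110.0 CPM in mutant libraries, against 94.6, 68.0, 84.2 and 89.8 CPM in wild-type libraries. Of the mutant libraries 3 lay above every wild-type library (log2 fold change 0.40, SE 0.17, edgeR adjusted p = 0.924). Panx3, a channel protein of osteoblasts and maturing chondrocytes, had 68.8, 35.8, 120.0 and 60.3 CPM in mutant libraries, against 45.3, 25.5, 74.6 and 44.1 CPM in wild-type libraries (log2 fold change 0.59, SE 0.42). In both genotypes replicate 2 was lowest and replicate 3 highest, and the range within each genotype was wider than the difference between the means. Tnfrsf11b (osteoprotegerin), the decoy that blocks osteoclast formation, had 81.7, 88.1, 66.7 and 101 CPM in mutant libraries, against 93.4, 54.4, 95.5 and 74.9 CPM in wild-type libraries. Its ligand Tnfsf11 (RANKL), which drives osteoclast formation, had 38, 101, 36 and 39 counts in mutant libraries, against 44, 40, 58 and 77 counts in wild-type libraries. The ratio of Tnfsf11 to Tnfrsf11b was 0.0299 ± 0.0154 in mutant and 0.0348 ± 0.0108 in wild-type libraries (SD, n = 4 each), a difference within the spread. Dkk1, an inhibitor of Wnt signalling, had a log2 fold change of 0.27 (SE 0.40).

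Bone genes outside the module were set beside it, in a list of 48 genes for collagen processing, further matrix proteins, transcription factors, Wnt and bone morphogenetic protein signals and phosphate handling. Of these 47 were tested, 40 had a positive log2 fold change and the median was 0.25. It was 0.15 without mutant replicate 3 and 0.12 without wild-type replicate 2. The highest median with 1 library left out was 0.33, without mutant replicate 2. None was called in the edgeR fit with genotype as the only term, and 2 were higher at an unadjusted p under 0.05. These were the matrix proteoglycans Ogn, at 319.5 ± 32.0 CPM in mutant and 220.4 ± 57.9 CPM in wild-type libraries, and Omd, at 190.2 ± 25.3 CPM in mutant and 135 ± 39.8 CPM in wild-type libraries (SD, n = 4 each, log2 fold changes 0.54 and 0.49). By smallness of p, not by size, Creb3l1, a transcription factor for collagen secretion, came next among positive values (log2 fold change 0.41, SE 0.19). In the same order by p the negative values were those of the phosphate transporter Slc20a1 (-0.24, SE 0.10), the stress-related transcription factor Atf4 (-0.19, SE 0.085) and the homeobox factor Msx2 (-0.22, SE 0.32).

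Genes of other tissues in the sample also varied between libraries, not all of them in the same order as the bone genes. The 9 erythroid markers summed to 7728 to 19167 CPM in mutant libraries, against 12973 to 50223 CPM in wild-type libraries, and all 9 had a negative log2 fold change (median -0.98, 0 called). Wild-type replicate 2, the library lowest in most bone genes, was the highest in this sum, and mutant replicate 3 was the lowest. The erythroid median was -0.56 without wild-type replicate 2. Without the most erythroid library of each genotype, replicate 2 in both, the median of the 30 bone genes was 0.20 with 21 of 30 positive, 9 at an unadjusted p under 0.05 and 0 called, a setting chosen after seeing the data. The 12 osteoclast markers included Car2 and Ctsk. They summed to 843 to 1293 CPM in mutant libraries, against 886 to 1688 CPM in wild-type libraries. Of the 12, 8 had a negative log2 fold change (median -0.21). The highest sum was in wild-type replicate 4, where Spp1, Mmp13 and osteocalcin also peaked. In wild-type replicate 2, 8 of the 12 were at their lowest (66.7%), against 70% of the bone genes and 16.8% of all genes. Car2 was instead highest there, at 491 of the 886 CPM summed, and lowest in mutant replicate 3, at 161 CPM. The erythroid sum had the same highest and lowest libraries. The part of erythroid cells in Car2, and so in the osteoclast sum, was not tested.

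The 13 cartilage markers summed to 2542 to 7523 CPM in mutant libraries, against 1399.7 to 4970.4 CPM in wild-type libraries (9 of 12 tested positive, median 0.41, Col2a1 0.76 with SE 0.53), and wild-type replicate 2 was the lowest library there too. All 8 soft connective tissue markers, led in level by Dcn and Col3a1, were positive (median 0.54, 0 called). Of these, 5 were at an unadjusted p under 0.05 in edgeR. Their sum was 1714 to 2653 CPM in mutant libraries, against 1166 to 2184 CPM in wild-type libraries. The 10 mucosal markers summed to 4.07 to 6.21 CPM in mutant libraries, against 195 to 652 CPM in wild-type libraries, and Bpifa1, Krt4, Krt5 and Krt14 among them were called lower. The 9 neutrophil and 9 B cell markers had medians of -0.34 and -0.96 with 0 called. The neutrophil median turned to 0.13 without wild-type replicate 2. With 1 library left out the B cell median ran from -1.28 to -0.77. Skeletal muscle markers summed to at most 18.9 CPM in any library, and the 8 hair cell markers to 199 to 232 CPM in mutant libraries, against 203 to 246 CPM in wild-type libraries. The part of these tissues in the values of the bone genes was not tested.

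**Figure D5:**
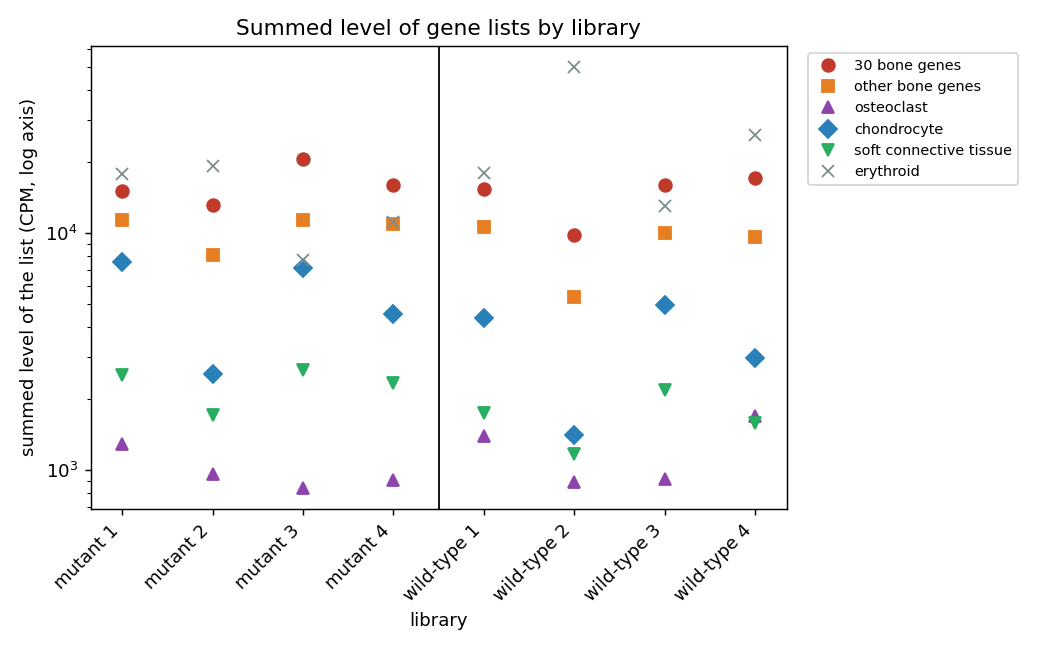
Summed CPM (log axis) of the 30 bone genes and of the lists of other bone, osteoclast, chondrocyte, soft connective tissue and erythroid genes in each mutant library (left of the line) and each wild-type library (right). The bone sum ran from 13126 to 20557.5 CPM in mutant and from 9858 to 16994 CPM in wild-type libraries, and in wild-type replicate 2 it was the lowest while the erythroid sum was the highest.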

How the data were processed

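Counts per gene symbol for 4 mutant and 4 wild-type libraries were used as deposited, as whole numbers without normalization. FastQC, STAR, HTSeq and the build mm10 are named, per the submitters' processing notes, and per the labels' protocols the kit adds molecular identifiers to each read. No source used here gives the annotation, the strand setting or the use of those identifiers. Of the 47517 symbols 45236 are names of GENCODE M21 (GRCm38, the assembly of mm10), from which positions and exon lengths were taken.

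All symbols were fitted together in edgeR 4.0.16 (R 4.3.3) with genotype as the term, TMM scaling, filterByExpr and robust quasi-likelihood estimation. Genes were called at an adjusted p (Benjamini-Hochberg) under 0.05. The fit was tested on simulated data. SE is the size of the fitted log2 value over the square root of F. Differences between libraries of 1 title form use log2(CPM + 0.1). Alternatives were other scalings and filters, DESeq2 1.42.0, limma-voom (limma 3.58.1), and title form or a replicate block as a term. Further alternatives left out haemoglobin genes, Y-linked genes and Xist, or each library in turn. Between libraries the chi-square of counts was at least 18.4 per degree of freedom, so none was a repeat deposit.

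The 30 genes, the lists and the rules were chosen with earlier results of these data known. All 30 may be named. Values per library are given for the 3 most abundant genes of each role and for genes at an unadjusted p under 0.05, and for others where stated. Of the other bone genes up to 3 per direction are named, and of the markers those called or most abundant.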

Additional observations from a re-analysis of the deposited data

Results flagged for a closer look

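Within the 4 libraries of a genotype, a single library stood apart from the other 3 by a gap that filled most of the range in 7 of 60 gene and genotype combinations, where chance gives about 1 in 20. Mutant replicate 3 was high for Col13a1, at 57.8 CPM against 34.1 to 37.8 CPM in the other mutant libraries, and for Sp7, at 118 CPM against 61.6 to 70.7 CPM. Mutant replicate 2 was high for Mmp13, at 149.7 CPM against 80.9 to 91.2 CPM, and for Tnfsf11, at 4.64 CPM against 1.67 to 2.06 CPM. Wild-type replicate 2 was low for Alpl, at 211 CPM against 341 to 357 CPM in the other wild-type libraries, for Ifitm5, at 17.6 CPM against 28.2 to 29.5 CPM, and for Mepe, at 13.4 CPM against 43.4 to 44.1 CPM. The members share these libraries, so the flags are not independent of each other.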

How the results depend on the processing

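In edgeR 9 genes were called over all genes. The count was 68 with DESeq2, 16 with limma-voom, 5 with title form as a term, 16 without the most erythroid library of each genotype and between 6 (without mutant replicate 1 or wild-type replicate 4) and 14 (without mutant replicate 4) with 1 library left out. None of the 30 bone genes was called under those settings, with other scalings or filters, or without robust estimation. The same held after leaving out haemoglobin genes, Y-linked genes and Xist. The median log2 fold change of the 30 ran from 0.089 to 0.42 with 1 library left out.

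Samples with neighbouring title numbers were also fitted as a replicate block, although the labels state no pairing and only 3 of the 4 pairs deviated together (correlations 0.128, 0.252, 0.187 and -0.0384). Mutant replicates 2 and 3 correlated best with the wild-type library of their own pair, and mutant replicates 1 and 4 with another. With the block 29 genes were called, 0 of them among the 30, while 11 of the 30 were at an unadjusted p under 0.05 and their median was 0.32. When genes that were at 0 in part of the libraries and at 10 counts or more in the rest were also dropped, a setting chosen after seeing the data, 317 genes were called, among them 6 of the 47 other bone genes and 5 of the 30, with 14 of the 30 at an unadjusted p under 0.05. The 5, all higher, were Panx3 (log2 fold change 0.57, edgeR adjusted p = 0.0104), Ibsp (0.84, 0.0248), Smpd3 (0.52, 0.0248), Dlx5 (0.54, 0.0311) and Alpl (0.40, 0.0466). Over the 22 alternatives the adjusted p of Ibsp ran up to 0.999954, and none of these 5 was called under any other setting.

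Signs of genes near 0 turned with 1 library left out, with log2 fold changes from -0.079 to 0.30 for Col1a1, -0.0055 to 0.30 for Phospho1, -0.058 to 0.036 for Ank, -0.18 to 0.20 for Dmp1, -0.0080 to 0.26 for Dlx3, -0.55 to 0.085 for Tnfsf11, -0.060 to 0.18 for Tnfrsf11b and -0.012 to 0.54 for Dkk1. Fgf23 turned to -0.016 with limma-voom, and Dmp1 and Tnfrsf11b turned to -0.21 and -0.083 without the most erythroid library of each genotype. The cause was not tested. Fgf23, Sost and Tnfsf11 had as few as 5, 35 and 36 counts in a library, so counting error weighs more on them, and Fgf23 also ranged from 5 to 122 counts among mutant libraries.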
